A study of Homo sapiens with 4 samples.

Results

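The cells described here are human microglia-like cells, treated with lipopolysaccharide (LPS), chosen by how many of 7 genes, among them EDN1, CLDN1 and TNFSF15, were detected in a cell compared with 7 opposing genes. Each cell received a score, the number of detected genes among EDN1, TNFSF15, CLDN1, ITGB8, KANK1, C2orf88 and DNAAF1 (the B genes) minus the number detected among LTB, LILRB2, ADGRE1, S100A12, CMKLR1, TIFAB and FEZ1 (the A genes), where detected means at least 1 unique molecular identifier (UMI). Cells with a score of at least 2 are called members. Cells were kept with 1 leading hashtag (at least 30 UMIs and 3 times the next), 1000 or more detected genes and up to 10% mitochondrial UMIs. Members numbered 1294 of 8762 kept LPS-treated cells (14.8%), out of 28943 barcodes and 16937 kept cells in all. The 7468 LPS-treated cells with a lower score are called other cells.

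All cells came from H9, a human embryonic stem cell line, differentiated through monocyte-like cells that were harvested on day 25 and kept for 7 days in TIC medium, a medium containing TGF-beta, IL-34 and cholesterol. The Ctrl cultures received the solvent DMSO and then PBS, and the Sema cultures received 2 µM semagacestat, an inhibitor of the protease gamma-secretase, for 22 h. The LPS cultures received DMSO and 200 ng/mL LPS for the last 6 h, and the SemaLPS cultures received both agents. Each of these 4 conditions had 3 cultures, labelled 1 to 3, and every culture carried its own antibody hashtag before all 12 were pooled and split over 2 droplet libraries. All cultures share 1 cell line and were collected in actinomycin D, which blocks transcription, and the labels do not say whether the 3 cultures of a condition came from separate differentiations, and a p-value here speaks only of how these 3 cultures varied. The members come from the 3 LPS and 3 SemaLPS cultures.

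LPS is a bacterial cell wall component that binds Toll-like receptor 4 and starts NF-kB and interferon signalling in macrophages and microglia. EDN1 encodes endothelin 1, a vasoconstrictor peptide best known from endothelium and also made by activated macrophages, and TNFSF15 encodes TL1A, a TNF family ligand of the receptor DR3. CLDN1 encodes claudin 1, a tight junction protein, and ITGB8 encodes the integrin subunit that, paired with alpha-v, activates latent TGF-beta.

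The start regions of the 3 genes that name the cells are shown because these genes are among the 7 counted in favour of membership, although a member need not carry all 3. Each sequence comes from RefSeq on GRCh38.p14 and holds 250 bases before and 50 bases after a transcription start, 5′ to 3′ on the gene's strand. Capitals mark a match, on either strand, to TATAAA or to the AP-1 motif TGANTCA. The windows are EDN1 at chr6:12290111-12290410 on the plus strand, CLDN1 at chr3:190322397-190322696 on the minus strand and TNFSF15 at chr9:114792481-114792780 on the minus strand.
EDN1: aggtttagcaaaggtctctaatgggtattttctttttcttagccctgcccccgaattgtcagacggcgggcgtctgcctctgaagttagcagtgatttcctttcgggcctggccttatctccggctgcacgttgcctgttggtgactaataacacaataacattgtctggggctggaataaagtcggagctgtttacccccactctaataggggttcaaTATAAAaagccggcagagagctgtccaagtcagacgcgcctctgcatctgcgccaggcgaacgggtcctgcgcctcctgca
CLDN1: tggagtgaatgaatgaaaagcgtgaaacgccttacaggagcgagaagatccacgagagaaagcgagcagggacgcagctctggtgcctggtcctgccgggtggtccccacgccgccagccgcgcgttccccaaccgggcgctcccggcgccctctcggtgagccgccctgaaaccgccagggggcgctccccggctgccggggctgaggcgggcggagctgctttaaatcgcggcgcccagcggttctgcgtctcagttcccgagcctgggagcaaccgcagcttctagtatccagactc
TNFSF15: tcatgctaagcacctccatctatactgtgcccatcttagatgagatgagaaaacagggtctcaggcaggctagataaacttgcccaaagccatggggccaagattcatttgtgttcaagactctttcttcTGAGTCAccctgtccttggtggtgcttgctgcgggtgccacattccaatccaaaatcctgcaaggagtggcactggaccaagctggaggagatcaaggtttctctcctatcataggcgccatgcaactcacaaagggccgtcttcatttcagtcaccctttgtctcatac
The EDN1 window held TATAAA from base -31, 11.6% of 34941 RefSeq windows of this length hold these letters, and the window's start lies 2 bases from the principal EDN1 start in GENCODE v29. The TNFSF15 window held TGAGTCA from base -120, a palindromic pattern read on both strands, and 7.72% of the windows hold the AP-1 motif. That TNFSF15 start lies 13596 bases inside the gene from the principal GENCODE start, so the window is an inner start. CLDN1 matched none of the motifs searched. The cAMP response element TGACGTCA, held by 1.84% of windows, and the kappaB motif, held by 9.08%, matched none of the 3 windows. A match describes letters only.

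In GENCODE v29 on GRCh38, EDN1 lies on chromosome 6 from 12290363 to 12297194 and CLDN1 on chromosome 3 from 190305701 to 190322475. TNFSF15 lies on chromosome 9 from 114784635 to 114806126, and KANK1 on the same chromosome from 470291 to 746106. All 7 B genes are protein coding there.

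Depth was even across cultures. The median member had 34002 to 36557 UMIs and 5226 to 5502 detected genes over the 6 LPS-treated cultures, against 30364 to 31633 UMIs and 4895 to 4958 genes in other cells. Members therefore had more UMIs than other cells in which a gene could be detected, and shares are also given after each cell was thinned to 10000 UMIs. The median mitochondrial share was 7.75% to 8.27% in members and 7.79% to 8.11% in other cells. Cells with over 2 times their culture's median UMIs made up 4.40% of members and 2.84% of other cells, doublets within a culture were not removed, and their part in the results was not tested. Of 91 barcodes found in both libraries, 4 belonged to members. Summed member UMIs ranged from 5136137 to 9764087 per culture.

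The members carried macrophage transcripts, and markers of endothelial and epithelial cells were few. AIF1, an actin-binding protein of microglia, stood at 387 CPM (UMIs of the gene per 1e6 UMIs of the summed cells, range 355 to 433 over 6 cultures) in members and 784 (range 685 to 940) in other cells. Of 13 macrophage and microglia markers at 5 CPM or more, 10 were lower in members in all 6 cultures and 2 were higher in all 6, and the list of 16 summed to 7360 to 7572 CPM in members and 8932 to 9574 CPM in other cells. The 2 that were higher were TYROBP and TREM2, partners in a microglial lipid receptor, with log2 ratios of members over other cells of 0.12 and 0.54. Over all 9155 genes at 5 CPM or more, 22.7% were higher and 20.2% lower in all 6 cultures. Of the 9 endothelial markers listed, KDR was at 0 in members and only EGFL7 reached 5 CPM, so the list summed to 27.9 to 34.8 CPM in members and 23.7 to 27.6 CPM in other cells. CDH5, the endothelial cadherin, had a UMI in at most 0.775% of a culture's members. Of the 9 epithelial markers, KRT19, CLDN4 and GRHL2 were at 0 in members, and the list summed to 31.2 to 41.7 CPM in members and 42.1 to 50.1 CPM in other cells. The 8 mast cell and granulocyte precursor markers summed to at most 0.410 CPM in members, and the 9 erythroid and megakaryocyte markers to at most 0.137 CPM. The 10 monocyte markers, which include the A gene S100A12, summed to 538 to 592 CPM in members and 1533 to 1637 CPM in other cells. Of 4 dendritic cell markers at 5 CPM or more, 2 were higher in members in all 6 cultures and 0 were lower in all 6. That list of 10 summed to 101 to 137 CPM in members and 87.9 to 116 CPM in other cells. The members are therefore named by their genes and not as a separate cell type.

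The score formed 1 continuous range with a single peak in each condition, and the members were its upper end. Every B gene went undetected in part of the members, so a single peak cannot decide whether they form a separate group. In LPS cultures the most frequent score was -1, held by 15.6% of cells, and in SemaLPS cultures it was -2, held by 16.5%. Members with exactly the threshold score of 2 numbered 640, or 49.5% of members, and 957 cells lay just outside it with a score of 1. Score 3 was held by 394 members and score 4 or more by 260. Just inside and just outside the threshold, the mean TNFSF15 level was 50.8 and 31.2 CPM, and CLDN1 stood at 110 and 82.3 CPM. For genes outside the score the same classes were also close, with ITGA6 at 176 and 143 CPM and CD9 at 1940 and 1688 CPM.

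**Figure D1:**
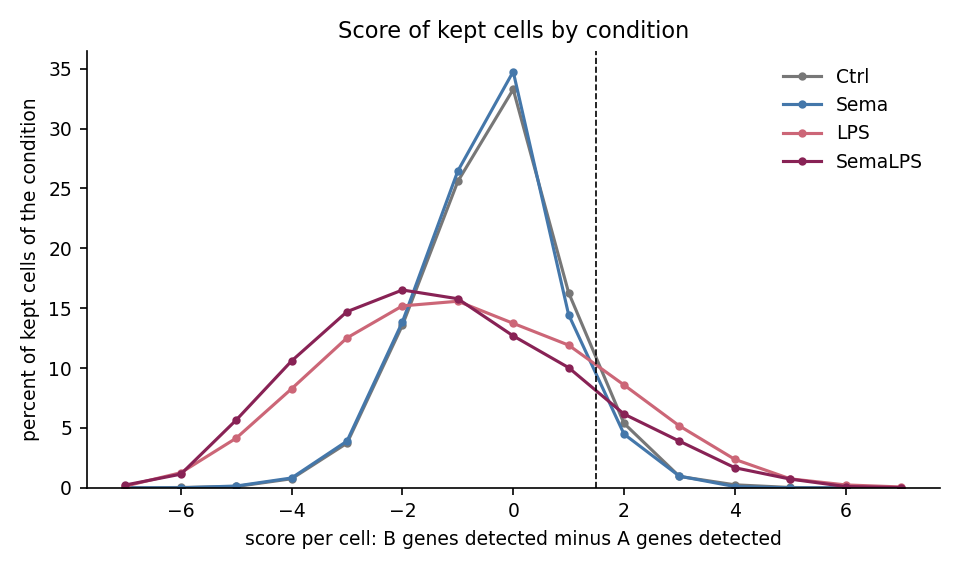
Percent of kept cells (vertical axis) at each score (B genes detected minus A genes detected, horizontal axis) in the 4 conditions, with the cultures of a condition pooled. The dashed line separates scores of 2 or more; each curve has 1 peak, and the LPS and SemaLPS curves are wider on both sides than Ctrl and Sema.

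The score genes were used to choose the members, so their levels are a description with no test. TNFSF15 had the highest ratio among the B genes. It stood at 92.6, 73.6 and 70.6 CPM in the members of LPS cultures 1 to 3 and at 53.7, 81.8 and 38.3 CPM in those of SemaLPS cultures 1 to 3, against 9.34 to 19.5 CPM in other cells. The groups did not overlap, and the mean ratio was 4.66-fold. TNFSF15 was also the B gene that varied most between the SemaLPS cultures.

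EDN1, the other secreted signal, stood at 108, 104 and 86.2 CPM in members of the LPS cultures and at 85.1, 83.9 and 75.2 CPM in members of the SemaLPS cultures. In other cells EDN1 ranged from 30.3 to 57.6 CPM, and the mean ratio was 2.02-fold, the lowest among the B genes. EDN1 had a UMI in 77.1% to 84.8% of members per culture, 36.5% to 49.3% of other cells and 11.7% to 17.0% of Ctrl and Sema cells, whose median depth was 27727 to 28569 UMIs outside the high scores. EDN1 transcripts were therefore common in LPS-treated cells in general. After thinning, the shares were 51.6% of members, 25.9% of other cells and 5.46% of Ctrl and Sema cells.

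The adhesion and scaffold genes followed the same division. CLDN1 stood at 115, 99.4 and 115 CPM in the members of the LPS cultures and at 124, 124 and 119 CPM in those of the SemaLPS cultures, against 36.4 to 50.7 CPM in other cells. ITGB8 ranged from 16.6 CPM in members of LPS culture 2 to 30.7 CPM in those of SemaLPS culture 2, and from 7.68 to 15.5 CPM in other cells. KANK1, which links talin at adhesion sites to the cell cortex, ranged from 38.5 to 52.4 CPM in members and from 12.5 to 15.6 CPM in other cells. None of the 3 overlapped between the groups.

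C2orf88, which encodes a small membrane anchor for protein kinase A, ranged from 18.1 to 26.1 CPM in members and from 3.79 to 6.30 CPM in other cells, a mean ratio of 4.12-fold. DNAAF1, a factor for assembling the dynein arms of motile cilia, ranged from 22.8 to 33.6 CPM in members and from 8.28 to 11 CPM in other cells. FOXJ1, DNAI1 and DNAH5, which mark motile cilia, were at 0 in members. Other genes of the B genes' pathways differed in direction. ITGAV, which pairs with ITGB8, had a log2 ratio of 0.02, and the tight junction protein TJP1 had 0.28. ADCY3, an adenylyl cyclase that makes cAMP, was higher in members in all 6 cultures (log2 ratio 0.60). EDNRB, a receptor for endothelin, was lower in 5 of 6 cultures (log2 ratio -0.43). Of 11 cAMP and PKA genes at 5 CPM or more, C2orf88 included, 5 were higher and 2 were lower in all 6 cultures. Over all 9155 genes at 5 CPM or more these shares were 22.7% and 20.2%, so the lower count is near that of all genes.

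**Figure D2:**
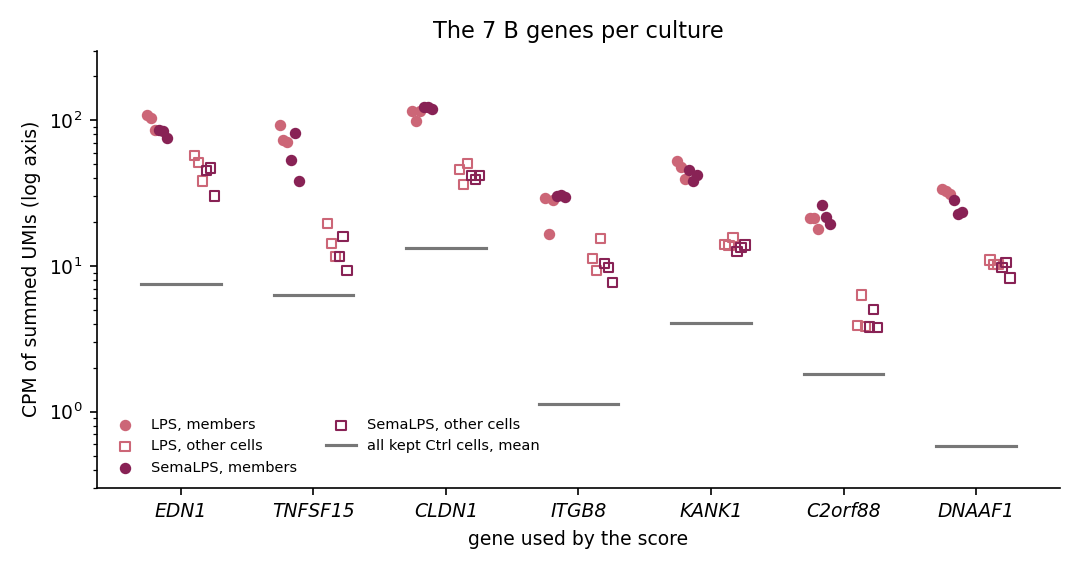
CPM on a log axis (vertical) of the 7 B genes (horizontal) in members (filled circles) and other cells (open squares) of each LPS and SemaLPS culture, with the mean of all kept Ctrl cells as a grey line. Every member value lies above every other-cell value of the same gene, from ITGB8 at 16.6 against at most 15.5 CPM to TNFSF15 at 38.3 against at most 19.5 CPM.

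No fixed combination of B genes made up the members. Of the 1294 members, 29.1% had 4 of the 7 B genes detected, 25.7% had 5 and 3.71% had all 7. The most frequent single combination, DNAAF1 with KANK1, CLDN1, EDN1 and TNFSF15, was found in 53 members. At least 1 A gene was detected in most members, and 21.8% had none. Each B gene was also left out of the score in turn, and cells were chosen by the other 6 B genes minus the 7 A genes. The gene left out was detected more often in the chosen cells than in the rest in 6 of 6 LPS-treated cultures, for each of the 7 genes. The A genes took part in this choice, and both gene sets were chosen with earlier results of these data known. These shares are therefore a description and do not test whether the B genes go together. KANK1 was found in 56.6% to 64.6% of cells chosen without it and in 26.5% to 32.0% of the rest, and TNFSF15 in 31.4% to 43.4% and 17.9% to 24.7%. After thinning to 10000 UMIs the order also held in 6 of 6 of these cultures for each gene. It did not hold throughout in the Ctrl and Sema cultures. There it held with all UMIs in 6 of 6 cultures for C2orf88, KANK1 and ITGB8, in 5 for CLDN1, in 4 for EDN1 and DNAAF1 and in 3 for TNFSF15. After thinning, which left 61 to 163 chosen cells per gene, it held in 6 for KANK1, 5 for CLDN1, 4 for EDN1 and TNFSF15, 2 for DNAAF1 and C2orf88 and 0 for ITGB8.

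The A genes had the reverse pattern, as the score requires. LTB, which encodes lymphotoxin beta, ranged from 5.05 to 9.35 CPM in members and from 26.0 to 53.4 CPM in other cells. LILRB2, an inhibitory receptor for MHC class I, ranged from 32.7 to 42.2 CPM and from 115 to 138 CPM. CMKLR1, the chemerin receptor, ranged from 11.8 to 18.3 CPM and from 57.3 to 65.8 CPM. In the comparison of LPS with Ctrl given next, the Ctrl cultures had means of 7.00 CPM for LTB and 17.6 CPM for CMKLR1 on edgeR's scale. Both lay within the range of the members, whereas the Ctrl mean of LILRB2, 15.5 CPM, lay below it. TIFAB had a UMI in 20.2% to 28.5% of members per culture and 6.43% to 8.20% of Ctrl and Sema cells. For FEZ1 these shares were 19.4% to 25.9% and 3.67% to 5.51%, and for ADGRE1 and S100A12 the ranges overlapped. The part of free RNA in the A gene levels of members was not tested.

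All 14 score genes rose with LPS when all kept cells of each culture were summed, a comparison that takes no account of the score. The score was made for LPS-treated cells with earlier results of these data known, which can favour genes detected under LPS. The rise of these genes is therefore a description, and their p-values are no independent support. By edgeR's quasi-likelihood test, at a Benjamini-Hochberg adjusted p under 0.05, 57.8% of 14693 genes were called, 29% higher in LPS than in Ctrl and 28.8% lower. EDN1 rose from a mean of 7.07 to 62.3 CPM (log2 3.14, adjusted p = 3.82e-07), CLDN1 from 12.4 to 60.5 CPM (log2 2.29, adjusted p = 1.65e-07) and TNFSF15 from 5.95 to 28.9 CPM (log2 2.28, adjusted p = 1.74e-06). The A genes rose as well, with LILRB2 going from 15.5 to 114 CPM (log2 2.88, adjusted p = 4.79e-09) and FEZ1 from 1.40 to 26.9 CPM (log2 4.26, adjusted p = 5.41e-08). In each of these genes the 3 LPS cultures lay above the 3 Ctrl cultures. Both ends of the score were thus made of genes that rose with LPS in the cultures as a whole.

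Outside the score genes, members and other cells differed in many transcripts, again given as a description because the same cells were chosen by correlated genes. Of 5264 genes with at least 20 CPM in members or other cells, 26.6% were higher in members in all 6 cultures and 24.1% were lower in all 6. The 12 genes with the largest ratios were CCL1, MMP7, RAMP1, GLDN, RGCC, ALDH1A2, ITGA6, EMP1, INHBA, TIMP3, SCIN and HBEGF. CCL1, a chemokine for CCR8, stood at 68.9, 42.1 and 43.6 CPM in members of the LPS cultures and at 52.6, 60.7 and 132 CPM in those of the SemaLPS cultures, against 9.23 to 20.1 CPM in other cells. SemaLPS culture 3 was the highest, and all 6 member values lay above the other cells.

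MMP7, the metalloproteinase matrilysin, ranged from 87.5 to 295 CPM in other cells and from 424 to 705 CPM in members. It had a UMI in 48.8% to 59.9% of members per culture and in 25.4% to 35.7% of other cells. ITGA6, the laminin receptor subunit, was even across cultures, at 199 to 229 CPM in members and 66.1 to 93.1 CPM in other cells. INHBA, the subunit of activin A, and ALDH1A2, an enzyme that makes retinoic acid, had mean ratios on the log2 scale of 1.35 and 1.39.

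With LPS over all kept cells, 3 of these 12 genes rose and 6 fell, where 29% of all genes tested rose and 28.8% fell. CCL1, ITGA6 and INHBA rose, with log2 changes of 3.38, 0.92 and 3.44 and adjusted p from edgeR's quasi-likelihood test of 9.41e-07, 7.96e-06 and 2.41e-05. RGCC fell from 311 to 58.7 CPM (log2 -2.41, adjusted p = 1.78e-05), and EMP1 fell from 83.0 to 24.0 CPM (log2 -1.79, adjusted p = 1.09e-05). RGCC, a regulator of the cell cycle, was higher in members than in other cells, at 61.1 to 154 against 27.6 to 47.3 CPM.

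The 12 genes with the lowest ratios were S100A8, GAPT, CENPF, FCGBP, MS4A6A, HIST1H1B, ASPM, CCL8, TOP2A, UBE2C, S100A9 and HAMP. S100A8 and S100A9 form calprotectin, a protein of inflammatory monocytes. S100A8 ranged from 53.2 to 75.7 CPM in members and from 246 to 293 CPM in other cells, and the median cell had 1 S100A8 UMI among members and 4 among other cells. S100A9 had medians of 4 and 21 UMIs. MS4A6A, a membrane protein of microglia and macrophages, ranged from 23.7 to 35.6 CPM in members and from 91.9 to 140 CPM in other cells.

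CENPF, HIST1H1B, ASPM, TOP2A and UBE2C act in DNA replication or mitosis. Of 10 proliferation markers at 5 CPM or more, 9 were lower in members in all 6 cultures, with a median log2 ratio of -1.07, where 20.2% of 9155 genes were lower in all 6 and the median over them was 0.01. MKI67 ranged from 9.64 to 23.8 CPM in members and from 35.1 to 70.8 CPM in other cells. The exception was the licensing factor MCM3, with a log2 ratio of -0.01.

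Most listed genes of surveying and antigen-presenting microglia were lower in members. Of 15 homeostatic microglia genes at 5 CPM or more, 13 were lower in all 6 cultures and none was higher in all 6, with a median log2 ratio of -0.53. Over all 9155 genes, 20.2% were lower and 22.7% higher in all 6. MAF, a transcription factor of resident macrophages, ranged from 33.8 to 51.0 CPM in members and from 114 to 144 CPM in other cells. C1QA, of the complement starter C1q, stood at 309 and 592 CPM. Of 12 MHC class II and costimulation genes, 9 were lower in all 6 cultures, with HLA-DRA at a log2 ratio of -0.87 and HLA-DMB at -1.08. CD83 and CD80 were the 2 that were higher in all 6, at 0.44 and 0.18. The summed level of the class II and costimulation list overlapped, at 1684 to 2146 CPM in members and 1740 to 2431 CPM in other cells.

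Genes linked to lipid handling and to disease-associated microglia were mostly higher in members. Of 16 such genes, 10 were higher in all 6 cultures and 1 was lower in all 6, where 22.7% of 9155 genes were higher in all 6. CD9, a tetraspanin, ranged from 1943 to 2241 CPM in members and from 804 to 1230 CPM in other cells, and the median cell had 62 and 20 UMIs. ITGAX, the integrin CD11c, had a log2 ratio of 0.97, LPL of 0.69 and SPP1, osteopontin, of 0.54. CLEC7A was the member of this list that was lower in all 6 cultures, at -0.14.

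Secreted factors divided. Of 10 cytokine genes, 5 were higher in members in all 6 cultures and none was lower in all 6: CSF1 (log2 ratio 1.52), IL23A (1.58), INHBA (1.35), TNF (0.65) and IL1B (0.64). IL12B ranged from 3.50 to 46.3 CPM in members and was higher in 5 of 6 cultures. Of 12 CC chemokines, 6 were higher and 3 were lower in all 6 cultures, the lower count being near the share of all genes. CCL3L1 had a log2 ratio of 0.87 and CCL5 of 0.61, while CCL8 had -1.84, CCL13 -1.41 and CCL2 -0.69. CCL3L1 and CCL4L2 are near copies of CCL3 and CCL4, so their reads could not be told apart with certainty.

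Interferon-stimulated genes had a median log2 ratio of -0.30. CXCL10, an interferon-induced chemokine, ranged from 6.76 to 21.6 CPM in members and from 27.6 to 51.2 CPM in other cells. Of 16 interferon-stimulated genes, 6 were lower in all 6 cultures and 1, the transcription factor IRF1, was higher in all 6. Over all 9155 genes at 5 CPM or more, 20.2% were lower and 22.7% higher in all 6. IFIT1 had a log2 ratio of -1.10. ISG15, with a ratio of 0.05, did not share the direction.

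For the signalling and other lists that follow, the shares over all 9155 genes were 22.7% higher and 20.2% lower in all 6 cultures. Of 13 NF-kB subunits and inhibitors, 4 were higher and 4 lower in members in all 6. The higher genes were NFKB1, NFKB2, REL and RELA, with log2 ratios of 0.20 to 0.69, and the lower ones were BCL3, TNFAIP3, TNIP1 and TNIP3. The rest of this list had no shared direction, and its median log2 ratio was -0.07. The summed level of the list overlapped, at 1681 to 1939 CPM in members and 1622 to 1904 CPM in other cells. TNIP3, an inhibitor of NF-kB, ranged from 46.1 to 57.0 CPM in members and from 82.0 to 120 CPM in other cells. Of 11 AP-1 and early response genes, 8 were higher in all 6 cultures, led by EGR2 (1.24) and ATF3 (1.09), and BATF was lower (-1.14). Of 12 glycolysis and hypoxia genes, none was higher and 9 were lower in all 6 cultures, with ADM at -1.19 and BNIP3 at -1.12. Of 8 plasminogen system and metalloproteinase genes, 5 were higher in all 6, and PLAUR, the urokinase receptor, ranged from 696 to 964 CPM in members and from 329 to 599 CPM in other cells.

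When the neighbours of each cell were found from 2000 variable genes with the 14 score genes left out, 36.9% to 41.4% of a member's 15 nearest cells were members, per culture, against 6.54% to 12.5% for other cells. Members made up 14.8% of the cells searched. Most of a member's neighbours were therefore not members.

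The Ctrl and Sema cultures were not used to choose the members, and the score was applied to them in the same way, a comparison added after the data were seen. High-scoring cells numbered 493 of 8175 (6.03%), at 5.68% to 7.55% of cells in the 3 Ctrl cultures and 5.41% to 5.72% in the 3 Sema cultures, and at 2.21% to 2.91% and 1.12% to 2.35% after thinning. They too had more UMIs, with culture medians of 31170 to 35454 against 27727 to 28569. Summed per culture and tested with edgeR's quasi-likelihood test with culture as a block, 19.7% of 13881 genes were called at an adjusted p under 0.05, 9.77% higher in high-scoring cells and 9.9% lower. These include the 7 B and 7 A genes, whose calls are no test because they chose the cells. For other genes, the p-value says only that their level went with the score within these cultures. It does not separate them from genes correlated with the score or from the difference in depth. The 12 genes with the largest ratios in the LPS-treated members were all higher here as well.

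RGCC showed the clearest separation. It stood at 597, 745 and 886 CPM in the high-scoring cells of Ctrl cultures 1 to 3 and at 448, 819 and 752 CPM in those of Sema cultures 1 to 3, against 174 to 364 CPM in the remaining cells (log2 1.43 ± 0.05 SE, adjusted p = 2.50e-14 by edgeR, n = 6 cultures). CD9 rose from 1695 to 3033 CPM (log2 0.84, adjusted p = 6.14e-14), and ATF3 from 40.6 to 116 CPM (log2 1.53, adjusted p = 3.50e-13). CCL1 rose by a log2 of 2.45 (adjusted p = 0.000232), yet its values were 1.51 to 28.2 CPM against 0.774 to 2.52 CPM, and only Ctrl cultures 1 and 3 stood far above the rest. Of the same 12 genes, 9 were still called when the score was taken after thinning, and MMP7, INHBA and TIMP3 were not.

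Of the 12 genes lowest in LPS-treated members, 10 were also lower in high-scoring Ctrl and Sema cells. S100A8 stood at 17.4 to 33.5 CPM against 46.9 to 63.5 CPM (log2 -1.23, adjusted p = 3.28e-09 by edgeR), and MS4A6A at 72.3 to 115 against 166 to 235 CPM (log2 -1.16, adjusted p = 3.50e-13). CCL8 and HAMP, hepcidin, were not called, with log2 values of 0.47 and 0.52 and adjusted p of 0.539 and 0.0860. By group, all 10 proliferation markers tested were lower, 14 of 20 homeostatic genes were lower and none higher, and 13 of 17 lipid and disease-associated genes were higher and none lower. Lists whose genes mostly rose with LPS differed here, where 9.77% of all 13881 genes were higher and 9.9% lower. Of 12 CC chemokines tested, 9 were higher and none lower, and of 13 NF-kB genes 7 were higher and none lower. Of 12 cytokines 5 were higher and 1 lower, and of 7 CXC chemokines 2 were higher and none lower. Of 16 TNF superfamily genes 6 were higher and 5 lower. Of 9 metabolic enzymes 3 were higher and 1 lower, and of 22 interferon-stimulated genes none was higher and 4 were lower. Of 13 glycolysis and hypoxia genes none was higher and 1 was lower, and of 9 Notch targets 1 was higher and 2 were lower. Of 10 metallothioneins 2 were higher and none lower, and of 4 dendritic cell markers none was higher and 1 was lower. Of 15 AP-1 and early response genes 9 were higher and 1 lower, and of 10 mitochondrially encoded genes 6 were higher and none lower. IL1B stood at 189 against 111 CPM (log2 0.74, adjusted p = 9.87e-06 by edgeR), and TNIP3 at 2.93 against 2.53 CPM (adjusted p = 0.717). SOD2 (log2 0.53, adjusted p = 1.86e-07), CXCL8 (0.84, 4.90e-05) and CCL20 (1.19, 0.0122) were also higher by edgeR, with no overlap between cultures only for SOD2. Whether free RNA or mixed droplets from the pooled LPS cells took part in this was not tested.

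**Figure D3:**
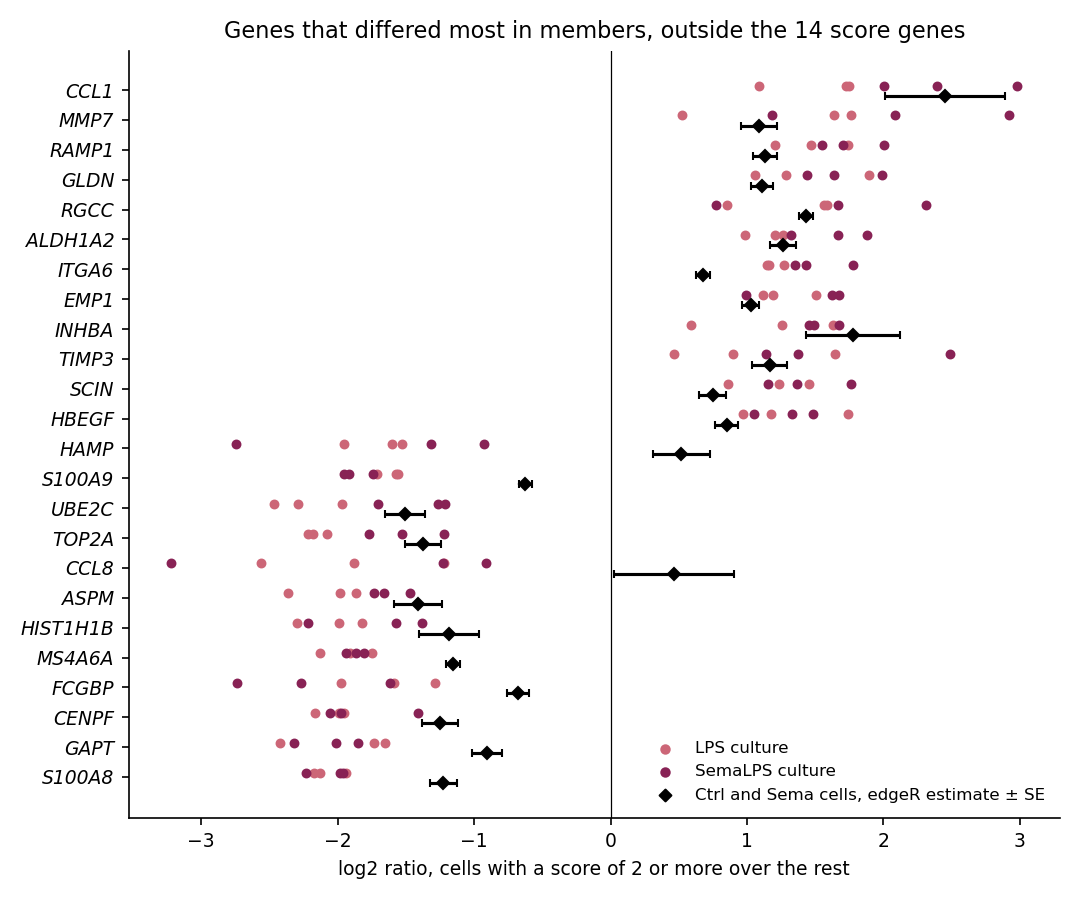
Log2 ratio (horizontal axis) of cells with a score of 2 or more over the rest for the 12 highest and 12 lowest genes outside the score (vertical axis). Coloured points are single LPS and SemaLPS cultures (CPM + 1, no test) and black diamonds are the edgeR estimates with SE in Ctrl and Sema cells; RGCC lies at 1.43 there and the estimates of CCL8 and HAMP lie above 0 while their culture points lie below.

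The share of members was lower in the SemaLPS than in the LPS cultures, in a design too small to reach an exact p under 0.05. It was 16.9%, 16.9% and 17.9% in LPS cultures 1 to 3 and 8.87%, 14.5% and 14.3% in SemaLPS cultures 1 to 3, the means being 17.2% ± 0.618 and 12.6% ± 3.20 (SD, n = 3). SemaLPS culture 1 stood apart from the other SemaLPS cultures. The groups did not overlap, and the difference of -4.67 percentage points had a two-sided exact permutation p = 0.1, the smallest that 3 against 3 allows. Without SemaLPS culture 1 the difference was -2.83 points. All 3 same-numbered pairs were lower in SemaLPS (exact sign-flip p = 0.25, the smallest that 3 pairs allow).

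After thinning to 10000 UMIs, which left out 73 LPS and 103 SemaLPS cells, the shares were 13.3% ± 1.07 and 10.1% ± 2.20 and still did not overlap. The difference was -3.54 points in library 1 and -5.96 points in library 2. In the cultures without LPS, high-scoring cells made up 6.60% ± 0.934 in Ctrl and 5.60% ± 0.170 in Sema, a difference of -0.997 points (exact permutation p = 0.2). This difference was -1.91 points in library 1 and 0.091 points in library 2, so its direction was not the same in both. Cells at the opposite end, with a score of -2 or less, made up 41.4% ± 4.38 of LPS cells and 48.9% ± 6.80 of SemaLPS cells, and these ranges overlapped (exact permutation p = 0.3). Within pairs of the same number that share was 46.1% and 56.8%, 37.4% and 45.3%, and 40.9% and 44.7%, higher in SemaLPS in all 3 (exact sign-flip p = 0.25, the smallest that 3 pairs allow).

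**Figure D4:**
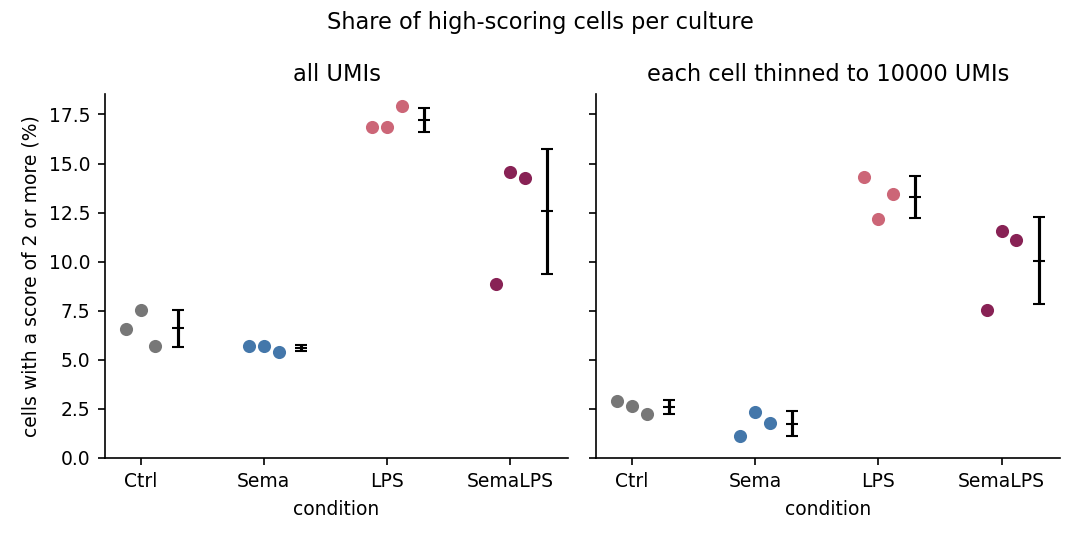
Percent of kept cells with a score of 2 or more (vertical axis) in each culture of the 4 conditions (horizontal axis), from all UMIs on the left and after thinning on the right. Points are cultures 1 to 3 and bars are the mean and SD; the LPS cultures lie at 16.9% to 17.9% and the SemaLPS cultures at 8.87% to 14.5% on the left.

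Within members, the inhibitor went with a lower CCL20 and a higher AHNAK. CCL20, the chemokine ligand of CCR6, stood at 256.8, 275.2 and 285.8 CPM in members of LPS cultures 1 to 3 and at 188, 212 and 207 CPM in those of SemaLPS cultures 1 to 3 (log2 -0.43 ± 0.06 SE, adjusted p = 0.0206 by edgeR). AHNAK, a large scaffold protein, stood at 90.2, 87.8 and 90.8 CPM in LPS and at 110, 121 and 129 CPM in SemaLPS (log2 0.43 ± 0.06 SE, adjusted p = 0.0307). Neither overlapped between the conditions. They were the only genes called of 11619 tested (0.0172%, and 0.00861% in each direction), while 630 had an unadjusted p under 0.05 and DESeq2's Wald test called 7. Without culture 2 of either condition no gene was called, and the count was 1 without SemaLPS culture 1, 5 without SemaLPS culture 3 and 33 without LPS culture 3.

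The culture numbers were then taken as pairs, although the labels do not say what they stand for. The choice rests on low correlations, 0.118 to 0.185, between same-numbered members in these same data, so results with this block depend on it. With the number as a block, edgeR's quasi-likelihood test called 25 genes (0.215% of those tested), 16 higher and 9 lower in SemaLPS members. The 9 include EDN1, a score gene, for which the call is no test because its detection helped to choose the cells. Inflammatory mediators were among the lower genes. IL1B stood at 3273, 2738 and 2453 CPM in LPS and at 2134, 2351 and 1860 CPM in SemaLPS members, lower within each pair (log2 -0.41 ± 0.05 SE, adjusted p = 0.00332, and 0.239 without the block). IL23A, the p19 subunit of IL-23, went from 17.3, 24.6 and 29.1 CPM to 11.5, 12.3 and 15.2 CPM (log2 -0.88, adjusted p = 0.00332 with the block and 0.191 without). Of 12 cytokine genes tested, 4 fell with the block, the others being IL6 (log2 -0.78, adjusted p = 0.0199) and IL1A (log2 -0.61, adjusted p = 0.0308). Of 15 CC chemokines, CCL20 and CCL3 fell.

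Genes of the cell cycle were among the higher ones. TOP2A went from 12.7, 9.13 and 11.4 CPM in LPS members to 21.4, 17.3 and 19.1 CPM in SemaLPS members (log2 0.80, adjusted p = 0.00761 with the block and 0.0998 without). Of 10 proliferation markers, TOP2A, TYMS, CDK1 and MKI67 rose with the block, and none fell. LYZ, lysozyme, rose by a log2 of 0.83 (adjusted p = 0.00761 with the block and 0.0571 without), and TIMP3, an inhibitor of metalloproteinases, by 0.57 (adjusted p = 0.00836 and 0.434). Only CCL20, IL1B and UBE2C were called with the block whichever culture was left out, and the other 22 lost their call without culture 2 of either condition.

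The B genes decide which cells are members, so their levels in LPS and SemaLPS members are a description with no test. EDN1 stood at 110, 103 and 88.2 CPM in LPS and at 83.6, 83.2 and 75.5 CPM in SemaLPS members on edgeR's scale, without overlap.

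**Figure D5:**
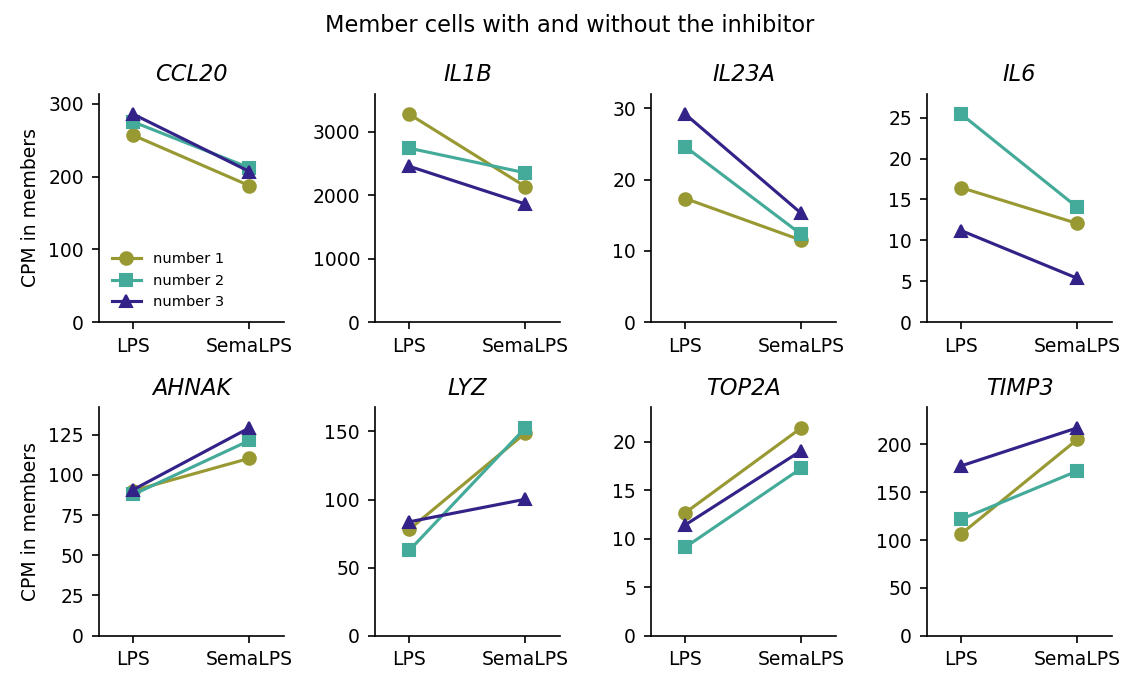
CPM (vertical axes, from 0) in the members of LPS and SemaLPS cultures for 8 genes called with the culture number as a block, with lines joining cultures of the same number. CCL20, IL1B, IL23A and IL6 are lower and AHNAK, LYZ, TOP2A and TIMP3 are higher in SemaLPS in all 3 pairs.

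The inhibitor's effect was not shown to differ between members and other cells. In a single fit of both, the interaction was called for 0 of 13714 genes (0%) by edgeR's quasi-likelihood test and for 0 by DESeq2, with 751 genes at an unadjusted p under 0.05. For CCL20 the difference of the 2 effects was a log2 of -0.19 (adjusted p = 0.894), and for IL1B it was -0.10 (adjusted p = 0.894). In other cells IL1B stood at 1971, 1580 and 1692 CPM in LPS and at 1451, 1494 and 1277 CPM in SemaLPS. AHNAK stood at 51.0, 60.7 and 64.0 CPM and 47.4, 54.8 and 73.3 CPM in LPS and SemaLPS other cells, and its difference of 0.43 had an adjusted p of 0.388.

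Among genes of the inhibited enzyme, PSEN2, a catalytic subunit of gamma-secretase, was higher in members, at 11.5 to 15.3 CPM against 6.07 to 8.53 CPM in other cells. The remaining 5 subunits had log2 ratios between -0.15 and 0.12. JAG1, a Notch ligand and gamma-secretase substrate, ranged from 12.2 to 18.2 CPM in members and from 4.75 to 7.66 CPM in other cells. Of 7 Notch targets at 5 CPM or more, LFNG and MYC were higher in members in all 6 cultures and RBPJ was lower in all 6. Over all 9155 genes these shares were 22.7% and 20.2%, so both counts are near those of all genes. The median log2 ratio of these targets was 0.03. None of 6 subunits, 17 substrates and 9 Notch targets tested was called between SemaLPS and LPS members, with or without the block. Of all 11619 genes tested, 0.0172% were called without the block and 0.215% with it, so lists of this size would rarely hold a called gene. HES1, a direct Notch target, had 3.06, 4.33 and 3.02 CPM in LPS and 3.64, 1.22 and 0.824 CPM in SemaLPS members (log2 -1.03, adjusted p = 0.571 with the block by edgeR).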

How the data were processed

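Per the submitters' processing notes, Cell Ranger 3.0.2, Seurat 4.1.1 and hg38 were used, and per the file headers the matrices came from Cell Ranger 6.0.1. The authors deposited raw UMI counts of 36601 genes and 12 hashtags per barcode for 2 libraries. Cells were kept with a top hashtag of at least 30 UMIs and at least 3 times the next, 1000 or more genes and no more than 10% of UMIs from mitochondrial genes. The members and the gene lists were chosen with earlier results of these data known. UMIs were summed per culture and class. Descriptive CPM are per 1e6 UMIs, and CPM beside a test carry edgeR's TMM scaling. Members against other cells got no test, and log2 ratios use CPM plus 1, averaged over the 6 cultures. Tests used edgeR 4.0.16 (quasi-likelihood, filterByExpr, adjusted p under 0.05), with DESeq2 1.42.0 as an alternative, and were tested on simulated data. Each culture number was taken as a pair, since same-numbered LPS and SemaLPS members correlated at 0.118 to 0.185 in their deviations from the group means and other pairs at -0.174 to 0.0615 (5079 genes). The labels do not say what the number stands for. Cells were thinned with a fixed seed, and those under 10000 UMIs were left out. Named genes were the 14 score genes, the 12 highest and 12 lowest by mean log2 ratio among genes of at least 20 CPM with 1 direction in all 6 cultures, up to 3 genes of at least 5 CPM per list, called genes for the inhibitor with up to 2 per list, and further list members chosen after their values were seen.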

Additional observations from a re-analysis of the deposited data

Results flagged for a closer look

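JAG1, a Notch ligand, had opposite directions in the treated and untreated cultures. Its log2 ratio of high-scoring over remaining cells averaged 1.11 over the 6 LPS and SemaLPS cultures, where all 6 were above 0, and -0.82 over the 6 Ctrl and Sema cultures, where all 6 were below 0. In Ctrl and Sema cells JAG1 stood at 2.24 to 4.18 CPM in high-scoring cells and at 5.12 to 6.75 CPM in the rest (log2 -0.98, adjusted p = 0.000384 by edgeR). Over all kept cells JAG1 rose with LPS by a log2 of 0.52 (adjusted p = 0.00355 by edgeR). The difference between the 2 ratios was not tested.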

How the results depend on the processing

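The member share stayed lower in SemaLPS than in LPS in all 15 alternatives. The replicate block, 1 of these, could not change the difference, because it averages the same cultures in pairs. Differences were -6.60 to -2.27 percentage points across the changes of filter, library and score. They were -5.66 to -2.83 points when 1 culture was left out. For SemaLPS against LPS in members, where 2 genes were called, the count was 1 with a hashtag ratio of 5, in library 1 alone, with a score of at least 3 and with the score taken after thinning. It was 0 with up to 20% mitochondrial UMIs, with a score of at least 1 and with members and other cells in 1 fit. It was 7 with DESeq2, 125 with no filter on low counts and 25 with the replicate block. Leaving out 1 culture gave 0 to 33 without the block and 9 to 134 with it (73 without LPS culture 1, 80 without SemaLPS culture 1, 9 without culture 2 of either condition, 134 without LPS culture 3 and 121 without SemaLPS culture 3), an alternative chosen after seeing the data. For the inhibitor effect in members minus that in other cells, where 0 genes were called, the count was 1 with a hashtag ratio of 5 and in either library alone, 8 with a score of at least 1, 68 with no filter on low counts and 0 to 8 without 1 culture. The replicate block raised the count of LPS against Ctrl from 8498 to 9541. For high-scoring against remaining Ctrl and Sema cells, where 2730 genes were called, the count was 1286 in library 1, 1654 in library 2, 1192 with a score of at least 3 and 969 with the score taken after thinning. Directions reversed in few cases, on the log2 scale. With a score of at least 3, IL23A had 0.031 and HIST1H1B -0.11 between SemaLPS and LPS members. In high-scoring Ctrl and Sema cells, FEZ1 had 0.34 after thinning and CCL8 -0.23 with a score of at least 1. Between members and other cells, LTBP3 had -0.050 after thinning and DNAAF5 -0.018 in library 1. For LPS against Ctrl, 5 genes that were not called crossed 0. ALDH1A2 had -0.036 in library 2 and -0.15 to 0.21 when 1 culture was left out. FCGBP had 0.015 with a hashtag ratio of 5, 0.075 with up to 20% mitochondrial UMIs, 0.081 in library 2 and -0.061 to 0.076 without 1 culture. HIST1H1B ranged from -0.63 to 0.049 and ASPM from -0.54 to 0.044 without 1 culture, both above 0 without Ctrl culture 1. UBE2C had 0.039 with up to 20% mitochondrial UMIs and -0.30 to 0.29 without 1 culture. The cause of these changes was not tested. UMI depth limits the genes below about 5 CPM, and the interval of a share covers counting error only.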
